A study of Homo sapiens with 17 samples.

Results

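The genes described here encode the proteins that carry RNA polymerase II from promoter-proximal pausing to the end of the transcript: pausing factors, histone chaperones of transcribed chromatin, the PAF1 complex, elongation factors, the Integrator complex, the cleavage and polyadenylation machinery, and factors of termination and of the polymerase's C-terminal domain (CTD). They were chosen by name, as a list of 57 genes out of the 19141 genes counted, and sorted into 7 groups by role. They were followed in YB5 cells, a human colon cancer line derived from SW48 that carries a GFP reporter silenced by DNA methylation, treated with 250 nM toyocamycin, an adenosine analogue, or with the solvent DMSO. The time course asked how the compound changes gene expression over time. Poly(A) RNA was sequenced from 17 libraries, 8 on DMSO and 9 on toyocamycin. Each arm had 2 libraries after 2 h, a single one after 24 and after 48 h, and 3 after 72 h. The 10 h time had 1 DMSO library and 2 toyocamycin libraries. For the latest samples the time is that of the sample labels, and the text of the study gives 96 h for it. All cells are of 1 line, so the replicates are cultures and not individuals.

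A polymerase that has started a transcript is held a short way downstream by NELF and DSIF until the kinase P-TEFb, which contains CDK9, releases it. The PAF1 complex, ELL proteins, TFIIS and histone chaperones then help it through the gene, while Integrator cuts and terminates transcripts near the promoter and processes small nuclear RNAs. At the 3′ end the CPSF, CSTF and cleavage factor complexes cut the RNA, a poly(A) tail is added, and the exonuclease XRN2, together with CTD-binding proteins and phosphatases, ends transcription.

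The promoters of 4 genes that were lower after 2 h are shown because these genes fell together at the first time and were all higher at the last. Each is the 250 bases before the transcript start in RefSeq (GRCh38.p14), written 5′ to 3′ on the gene's strand. Capitals mark the letters of the TATA box TATAAA, the CCAAT box CCAAT and the GC box GGGCGG, searched on both strands. They come from 8 such genes with a promoter in the table, and the other 4 hold more than 30 bases of an annotated exon in this window and are not printed.
PPP1R10, chr6:30617244-30617493, minus strand: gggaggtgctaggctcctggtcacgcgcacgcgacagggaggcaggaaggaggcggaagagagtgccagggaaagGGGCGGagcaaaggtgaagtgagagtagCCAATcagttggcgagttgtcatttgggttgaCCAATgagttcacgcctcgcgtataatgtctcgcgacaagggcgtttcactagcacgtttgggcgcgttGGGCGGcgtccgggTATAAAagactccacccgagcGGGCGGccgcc
CLP1, chr11:57657512-57657761, plus strand: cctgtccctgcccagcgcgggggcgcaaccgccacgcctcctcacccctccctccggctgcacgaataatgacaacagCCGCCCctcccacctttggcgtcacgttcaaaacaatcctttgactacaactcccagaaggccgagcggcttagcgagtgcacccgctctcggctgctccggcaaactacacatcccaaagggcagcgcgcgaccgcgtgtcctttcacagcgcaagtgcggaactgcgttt
WDR33, chr2:127811172-127811421, minus strand: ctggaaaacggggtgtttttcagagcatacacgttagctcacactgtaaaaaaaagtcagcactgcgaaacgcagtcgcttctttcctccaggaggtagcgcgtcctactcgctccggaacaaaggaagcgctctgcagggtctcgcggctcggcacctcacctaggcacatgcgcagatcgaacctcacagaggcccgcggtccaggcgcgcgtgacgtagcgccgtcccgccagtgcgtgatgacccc
RPRD1B, chr20:38033496-38033745, plus strand: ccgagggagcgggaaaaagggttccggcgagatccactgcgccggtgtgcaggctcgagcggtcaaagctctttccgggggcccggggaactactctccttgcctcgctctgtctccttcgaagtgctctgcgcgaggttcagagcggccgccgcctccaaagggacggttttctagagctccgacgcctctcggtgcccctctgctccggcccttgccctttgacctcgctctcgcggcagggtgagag

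A promoter was found for 49 of the 57 genes. The letters TATAAA stood in the window of 1 of the 49, PPP1R10, where they begin 32 bases before the start (position -32), against 11.13% of all 27305 promoters searched. CCAAT was present in 18 of the 49 and in 33.04% of all promoters, and GGGCGG in 35 of the 49 and in 42.31% of all. PPP1R10 held CCAAT at positions -147 and -115, while the windows of WDR33 and RPRD1B held none of the motifs named in this paragraph. The ETS letters CCGGAAG were in 15 of the 49 windows and in 8.815% of all promoters, and TGACGTCA, the letters of the cyclic AMP response element, were in 4 of the 49 and in 1.765% of all. CACGTG, an E box, was in 4 of the 49 and in 6.49% of all, the palindromic NRF1 motif in 1 of the 49 and in 1.128% of all, and a YY1 motif in 0 of the 49 and in 0.2564% of all. The 27305 promoters were not limited to genes expressed in these cells or to a type of gene, so they are not a matched set for the 49. These matches describe the letters of the windows and were not tested against the expression values.

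Between 8735465 and 22121364 counts per library fell on genes. The toyocamycin library of 10 h, replicate 2, had the lowest total and stood apart: 4241 genes with at most 1 count in every DMSO library had a median of 7 counts there, against 0 or 1 in each of the others. The summed counts of the 57 genes took 0.518% to 0.598% of each DMSO library and 0.541% and 0.551% of the toyocamycin libraries at 2 h. On toyocamycin this share had dropped to 0.376% and 0.382% by 10 h. The lowest value, 0.254%, was that of 24 h, and it was 0.312% in the 48 h library and 0.338% to 0.367% in those of 72 h. The 100 most abundant genes took 18.6% to 22.2% of counts on DMSO, and between 34.5% and 37.4% on toyocamycin from 24 h on. Mitochondrially encoded genes took 0.917% to 3.47% on DMSO and 1.46% to 6.55% on toyocamycin. The part of these 2 measures in the results below was not tested. Fewer cells and less RNA per cell cannot be told apart in bulk libraries. Of 12 colon epithelium markers, 8 were at 1 CPM (counts scaled to library size, with TMM factors) or more in every DMSO library, with KRT20 under 1 CPM in every library. None of the 14 fibroblast, leukocyte and endothelium markers reached 1 CPM in every DMSO library. The summed level of the colon markers ran from 1804 to 7270 CPM on DMSO and from 563 to 5229 CPM on toyocamycin. The fibroblast markers summed to at most 11.6 CPM on DMSO and 21.1 CPM on toyocamycin, the leukocyte markers to at most 0.591 and 5.19 CPM, and the endothelium markers to at most 0.668 and 14.7 CPM. The part of these markers in the results was not tested. The batch label puts replicate 2 of each arm at 2 and at 10 h, 4 libraries in all, in the second batch and the other 13 in the first.

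Of the 57 genes, 56 had enough counts to be tested. SUPT4H1, the small subunit of the pausing factor DSIF, had 10 counts in all libraries together and was not tested, and its exons overlap another annotated gene on the same strand. The tests used edgeR's quasi-likelihood test, adjusted over all genes by Benjamini-Hochberg, and a gene was called at an adjusted p under 0.1. Effects are fitted log2 fold changes of toyocamycin against DMSO at the same time.

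**Figure D1:**
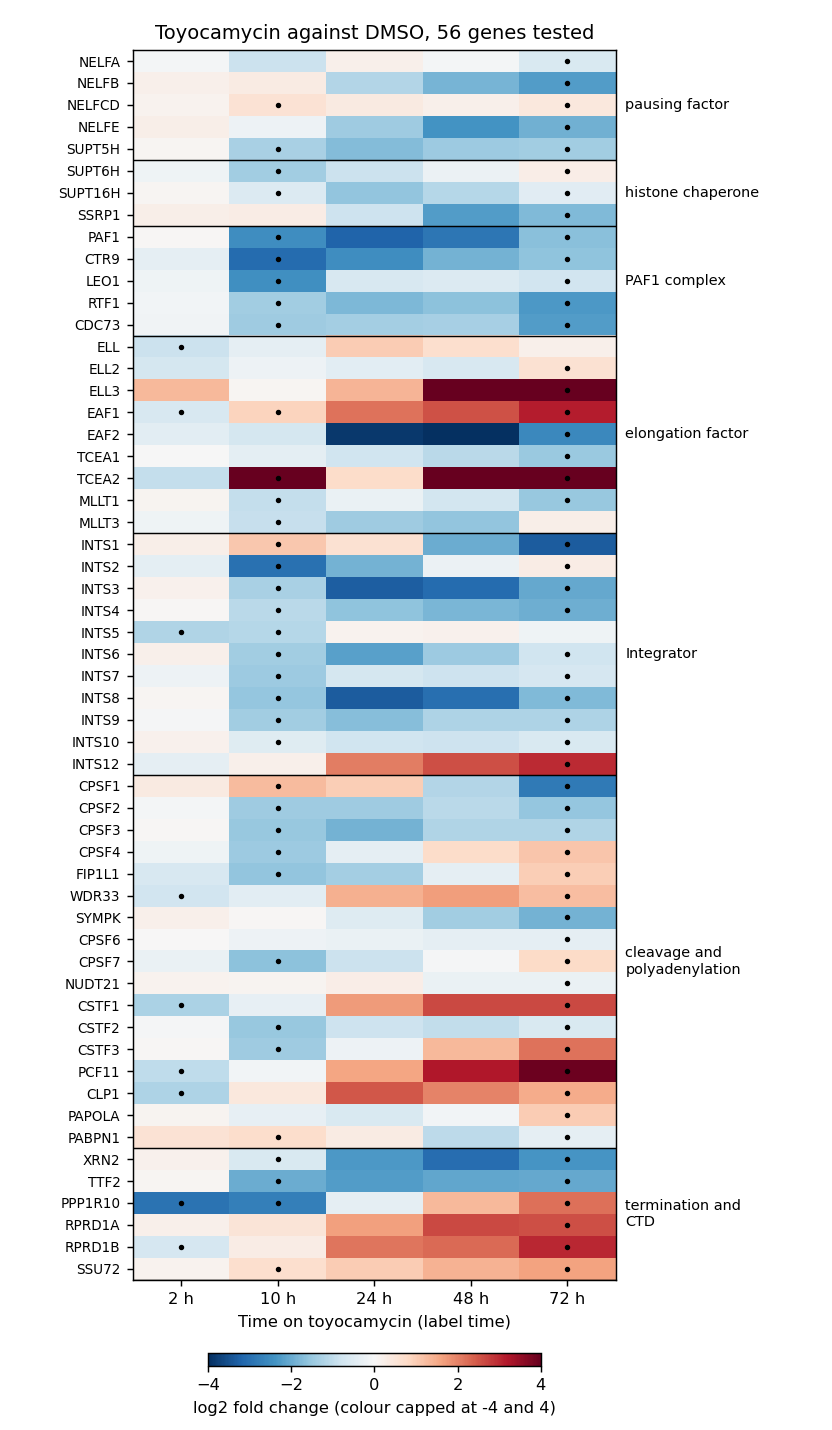
Each row is 1 of the 56 tested genes, grouped by role, and each column a time on toyocamycin; colour gives the log2 fold change against DMSO of that time, and a dot marks a gene past the threshold at 2, 10 or 72 h, the times with replicates in at least 1 arm. At 2 h the 9 dots all mark lower genes, and uncalled genes such as ELL3 and TCEA2 also carry colour. The listed genes of the PAF1 complex are blue from 10 h on, and 4 of the 6 genes of termination and the CTD are red at 72 h.

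After 2 h, 9 of the 56 genes had fallen and none had risen. Over all 14491 genes tested, 8.42% were called lower and 0.518% higher. Of the 9, 4 belonged to cleavage and polyadenylation (CSTF1, CLP1, PCF11 and WDR33), 2 to termination and the CTD (PPP1R10 and RPRD1B), 2 to elongation (ELL and EAF1), and 1 to Integrator (INTS5). All 5 tested pausing factors, the 3 histone chaperones and the 5 listed genes of the PAF1 complex stayed under the threshold, with effects between -0.35 and 0.22. The count of 0 higher genes compares with 1 gene at an unadjusted p under 0.05 in edgeR and with 0 calls in DESeq2's Wald test. With the replicate number as a block, which at 2 h is the batch, the same 9 were lower. PABPN1, the nuclear poly(A)-binding protein, then became the 1 gene called higher (log2 fold change 0.54, adjusted p = 0.0378). Of the 3686 exon bases of PABPN1, 1447 overlap BCL2L2-PABPN1 on the same strand. Scaled on mitochondrially encoded genes, PPP1R10 alone of the 56 was called, beside 0.6% of all genes lower. On that scale the effects of the other 8 ran from -1.40 (CSTF1) to -0.82 (EAF1), each as far from 0 as in the reported fit or farther, with larger standard errors of 0.54 to 0.56. The median effect over the 56 genes was -0.024, and over all genes 0.022.

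PPP1R10 (ENSG00000204569, chr6:30600413-30618612, minus strand, GRCh38), the nuclear targeting subunit of protein phosphatase 1, had the largest fall. Its level was 102 and 81.3 CPM in the DMSO libraries of 2 h and 13.1 and 10.4 CPM in the toyocamycin libraries. The groups did not overlap, and the mean of 91.6 ± 14.6 CPM on DMSO was 7.79-fold that of 11.8 ± 1.93 CPM on toyocamycin (SD, n = 2 each). The fitted log2 fold change was -2.96 (SE 0.182, adjusted p = 1.06e-06).

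CSTF1, a subunit of the cleavage stimulation factor that binds the downstream GU-rich element, stood at 29.7 and 30.02 CPM on DMSO and at 12.9 and 11.9 CPM on toyocamycin. This fall of 1.27 on the log2 scale (SE 0.15, adjusted p = 8.82e-05) was seen in both pairs. CLP1 (chr11:57648188-57661865), the RNA kinase of cleavage factor II, measured 19.9 and 19.0 CPM on DMSO and 8.62 and 7.91 CPM on toyocamycin, a log2 fold change of -1.23 (SE 0.163). PCF11, its partner in cleavage factor II and a CTD-binding termination factor, was at 69.5 and 75.8 CPM on DMSO and at 33.1 and 38.8 CPM on toyocamycin, a log2 fold change of -1.01 (SE 0.147). In these 3 genes too, both toyocamycin libraries lay under both DMSO libraries.

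INTS5, an Integrator subunit encoded by 2 exons on chr11:62646848-62653302, had 48.5 and 35.7 CPM on DMSO and 21.3 and 15.4 CPM on toyocamycin. Its log2 fold change of -1.20 (SE 0.195, adjusted p = 0.00113) was the only call among 11 Integrator genes. ELL, a factor that raises the rate of elongation within the super elongation complex, had 42.8 and 25 CPM on DMSO and 21.3 and 16.1 CPM on toyocamycin. The DMSO libraries of ELL were themselves far apart, and its call (log2 fold change -0.86, SE 0.232, adjusted p = 0.0343) was lost without DMSO replicate 1 (-0.42, adjusted p = 0.343) or without toyocamycin replicate 2 (-0.68, adjusted p = 0.286).

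The remaining 3 genes fell by smaller amounts. WDR33, the CPSF subunit that contacts the polyadenylation signal, went from 72.2 and 54.2 CPM on DMSO to 38.4 and 35.3 CPM on toyocamycin (log2 fold change -0.78, SE 0.156, adjusted p = 0.00529). RPRD1B, a CTD-binding protein, went from 45.4 and 41.6 to 28.5 and 26.3 CPM (log2 fold change -0.67, adjusted p = 0.0123), and its call was lost without toyocamycin replicate 2 (-0.61, adjusted p = 0.108). EAF1, a partner of ELL, went from 24.9 and 25 to 13.8 and 18.2 CPM (log2 fold change -0.64, adjusted p = 0.0234), and lost its call without toyocamycin replicate 1 (-0.45, adjusted p = 0.248). EAF1, RPRD1B and CLP1 share exon bases with genes on the opposite strand, and it is not stated whether counting used strand.

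Every toyocamycin library of 2 h was lower than every DMSO library for 19 of the 57 genes and higher for 9. The same held for 20.3% and 16.7% of all genes tested. All 9 called genes were among the 19. In the annotation, the 9 spanned a median of 23038 bases with 7 exons in the canonical transcript, and the 47 genes not called spanned a median of 47785 bases with 17 exons. The spans overlapped widely, from 6455 to 110161 bases and from 4707 to 280831 bases, and the difference was not tested. Across the 56 genes, span and the 2 h effect were weakly related (Pearson r = -0.039 on log10 span, Spearman rho = -0.18), as a description over genes measured in the same 4 libraries.

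**Figure D2:**
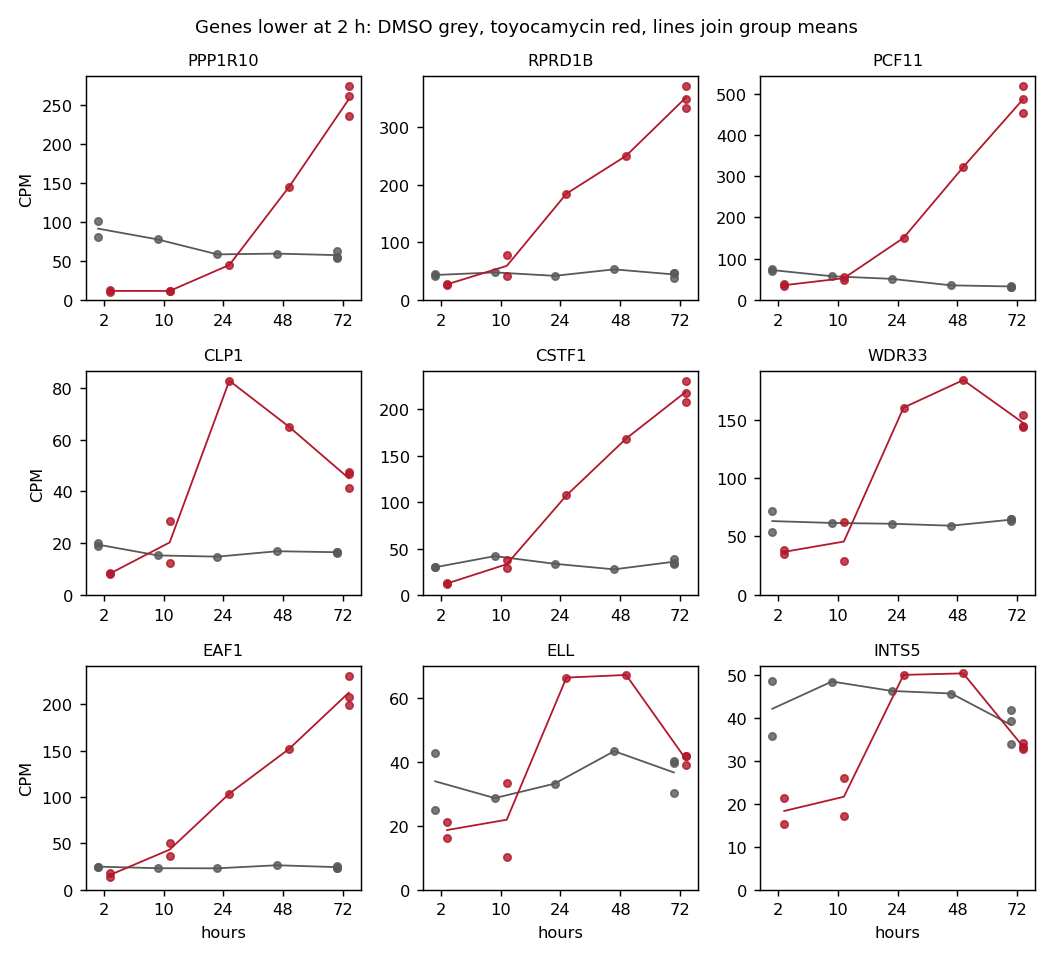
CPM against time in hours for the 9 genes lower at 2 h, with a point for each library (DMSO grey, toyocamycin red) and lines through the group means; the time axis is not to scale. The red points lie under the grey ones at 2 h in all 9 panels, and by 72 h they lie above them in 7, while ELL and INTS5 have returned to near the DMSO level.

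By 72 h most of these 9 genes stood on the other side of their DMSO level. PPP1R10 was at 63.3, 55.8 and 53.9 CPM in the DMSO libraries and at 237, 262 and 274 CPM in the toyocamycin libraries, 4.47-fold higher (log2 fold change 2.19, SE 0.141, adjusted p = 7.78e-10). On the way there it was at 77.8 CPM on DMSO and 11.7 and 11.7 CPM on toyocamycin at 10 h, at 58.6 against 45.1 CPM at 24 h, and at 59.6 against 145 CPM at 48 h. PPP1R10 was thus low through 10 h, near the DMSO level at 24 h, and above it from 48 h. Its toyocamycin groups did not overlap with DMSO at 2 h or at 72 h.

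PCF11 showed the largest rise among the 9. Its toyocamycin libraries of 72 h held 518, 487 and 453 CPM against 31.9, 32.8 and 34.1 CPM on DMSO, 14.7-fold higher (log2 fold change 3.91, SE 0.132, adjusted p = 1.22e-12). The DMSO level of PCF11 was itself lower at 72 h than the 69.5 and 75.8 CPM of 2 h. RPRD1B reached 372, 349 and 334 CPM against 46.9, 39.0 and 47.6 CPM (log2 fold change 3.01, SE 0.13). EAF1 reached 231, 199 and 208 CPM against 23.6, 23.8 and 25.9 CPM (log2 fold change 3.15, SE 0.138). In none of these 3 genes did the groups overlap. CSTF1 (log2 fold change 2.64), CLP1 (1.48) and WDR33 (1.23) were also higher, though on the mitochondrial scale CLP1 (0.40, adjusted p = 0.397) and WDR33 (0.15, adjusted p = 0.762) were not called. ELL (0.19, SE 0.188) and INTS5 (-0.17, SE 0.158) did not pass the threshold, and the sign of ELL turned when libraries were scaled by total counts alone (-0.41).

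The difference between the effects at 72 h and at 2 h was tested directly in the same model. It passed the threshold for all 9 genes, with log2 differences of 5.15 for PPP1R10, 4.93 for PCF11, 3.91 for CSTF1, 3.80 for EAF1, 3.68 for RPRD1B, 2.72 for CLP1, 2.00 for WDR33, 1.05 for ELL and 1.03 for INTS5. These genes were picked by their fall at 2 h, and the difference subtracts the same 2 h values, so a higher effect at 72 h was favoured beforehand. For ELL and INTS5, not called at 72 h, the difference mostly restates the 2 h fall. Scaled by total counts the call was lost for ELL (0.51, adjusted p = 0.142) and INTS5 (0.49, adjusted p = 0.101), and on the mitochondrial scale for ELL (0.19, adjusted p = 0.864), INTS5 (0.12, adjusted p = 0.935) and WDR33 (1.15, adjusted p = 0.159). Without DMSO replicate 1 of 2 h the difference for ELL was 0.61. The mean DMSO level went from 72.6 CPM at 2 h to 33.0 CPM at 72 h for PCF11, and from 91.6 to 57.7 CPM for PPP1R10. Over the 8 DMSO libraries the highest level was 2.37 times the lowest for PCF11 and 1.89 times for PPP1R10. It was 1.14 (EAF1) to 1.73 (ELL) times the lowest for the rest of the 9. The part of this drift in the differences was not tested. Over the 56 genes the effect was higher at 72 h than at 2 h for 22 and lower for 29, against 38% and 38.1% of all genes. The comparisons at 2 h and at 72 h share no library. Of the 9 genes lower at 2 h, 7 were higher at 72 h and none lower, whereas of the other 47 tested genes 14 were higher, 32 lower and 1 (MLLT3) neither. Among all genes, 60.6% of the 1220 that were lower at 2 h were higher at 72 h and 29% lower, and of the 13271 others 45.7% were higher and 43% lower.

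**Figure D3:**
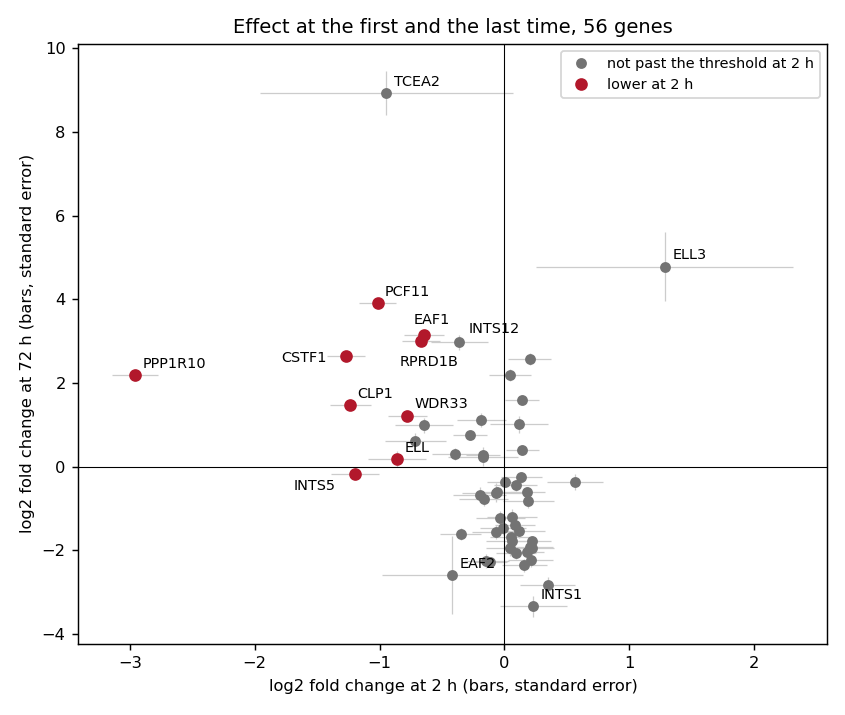
The log2 fold change at 2 h (horizontal) against that at 72 h (vertical) for the 56 tested genes, with bars of 1 standard error; red points are the 9 genes lower at 2 h. Of the red points, 8 lie above the horizontal zero line and INTS5 just under it, and of the grey points 14 were called higher and 32 lower at 72 h; some uncalled genes, such as ELL2 (-0.71) and FIP1L1 (-0.64), lie as far left at 2 h as called ones.

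After 10 h, 29 of the 56 genes were lower and 7 higher, against 24.4% and 20.4% of the 16521 genes tested. The median effect was -0.66 over the 56 genes, the same with TCEA2 set at its bound, and 0.42 over all genes. Scaled by total counts, 38 were lower and 2 higher, against 34.4% and 11.3% of all genes, and on the mitochondrial scale 33 and 1, against 32.5% and 3.04%. The PAF1 complex and Integrator held 14 of the 29. Of the 11 listed Integrator genes 9 were lower, as were all 5 listed genes of the PAF1 complex. CTR9, the scaffold of the PAF1 complex, had 141 CPM in the DMSO library and 17.6 and 15.5 CPM in the toyocamycin libraries (log2 fold change -3.08, adjusted p = 4.76e-07). INTS2 had 46.4 CPM against 4.93 and 7.07 CPM (log2 fold change -2.97), and PAF1 79.3 CPM against 13.8 and 14.6 CPM (log2 fold change -2.48). Both toyocamycin libraries of these genes lay far under the DMSO library, which has no replicate at this time. For each of these genes that library was the highest of the 8 DMSO libraries of all times. The lowest DMSO values were 83.0 CPM for CTR9, 24.8 CPM for INTS2 and 69.8 CPM for PAF1, and both toyocamycin libraries of 10 h lay under these too.

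The genes higher at 10 h included INTS1, the largest Integrator subunit, and CPSF1, the largest CPSF subunit. INTS1 had 432 CPM in the DMSO library and 1145 and 681 CPM on toyocamycin (log2 fold change 1.08, adjusted p = 0.0447). The 681 CPM lay within the range of the 8 DMSO libraries of all times, 394 to 695 CPM. The call was lost in 4 of 12 other settings, among them the fit without toyocamycin replicate 1 (0.66). Over the 12 the effect ran from 0.021 to 1.41. CPSF1 had 97.7 CPM against 298 and 170 CPM (log2 fold change 1.26), and its call was lost in 1 of 12 other settings, with effects from 0.21 to 1.62 over them. EAF1, lower at 2 h, had 23.3 CPM against 50.7 and 35.9 CPM (log2 fold change 0.90), a sign that turned when libraries were scaled on mitochondrially encoded genes (-0.19). TCEA2, a tissue-restricted form of TFIIS, had 0 counts on DMSO and 7 and 18 on toyocamycin, the second in the library that stood apart. On a floor of 3 counts for the DMSO library this was at least 9.84-fold higher.

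The values at 24 and 48 h come from 1 library per arm, with no replicate check of their own, and the test took the spread from the replicates of the other times. At 24 h, 29 genes were lower and 11 higher, against 32% and 30.7% of all genes, and at 48 h 29 and 15, against 35.5% and 39.2%. The medians over the 56 genes were -0.67 at 24 h and -0.77 at 48 h, against 0 and 0.16 over all genes. The split depended on the scale: on the mitochondrial scale 43 were lower and 0 higher at 24 h (60.1% and 2.98% of all genes), and 41 and 2 at 48 h (51.2% and 11.2%). INTS3 had 65.6 CPM on DMSO and 6.67 CPM on toyocamycin at 24 h, and 55.7 against 6.51 CPM at 48 h. INTS8, a subunit of Integrator's phosphatase module, had 24.5 against 2.41 CPM at 24 h and 24.7 against 3.01 CPM at 48 h. PAF1 had 69.8 against 7.43 CPM at 24 h. In the other direction, CLP1 had 14.8 against 82.8 CPM, RPRD1B 42.1 against 185 CPM, EAF1 23.2 against 104 CPM and INTS12 4.28 against 17.7 CPM at 24 h. At 48 h XRN2, the exonuclease that chases the polymerase after cleavage, had 101 CPM on DMSO and 12 CPM on toyocamycin, whereas PCF11 had 35.6 against 322 CPM and RPRD1A 22.1 against 137 CPM. Large folds at low counts were those of EAF2, with 28 counts on DMSO against 1 on toyocamycin at 24 h and 15 against 0 at 48 h. TCEA2 had 0 against 79 counts and ELL3 1 against 21 at 48 h. On a floor of 3 counts, EAF2 was then at least 2.96-fold lower and TCEA2 at least 44.5-fold higher.

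At each of the 4 times after 2 h, 18 genes were lower: SUPT5H, SUPT16H, 4 genes of the PAF1 complex (PAF1, CTR9, RTF1 and CDC73), 7 Integrator genes (INTS3, INTS4, INTS6, INTS7, INTS8, INTS9 and INTS10), CPSF2, CPSF3, CSTF2, XRN2 and TTF2. EAF1 and SSU72, a CTD phosphatase, were higher at all 4 times. Of the 14491 genes tested throughout, 14.5% were lower and 9.78% higher at all 4. These comparisons share the libraries that set the spread but not the libraries compared.

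After 72 h, 32 of the 56 genes were lower and 21 higher, against 41.9% and 47% of all genes. The groups of 3 did not overlap for 30 genes that were lower and 20 that were higher, against 41.8% and 45.8% of all genes. The called genes whose groups overlapped were NUDT21, PABPN1 and INTS2, and leaving out a single library ended each of these calls. The median effect was -0.52 over the 56 genes and 0.18 over all genes. Scaling decided part of the balance: scaled on the summed counts of the 13 mitochondrially encoded protein genes, the same libraries gave 35 lower and 10 higher, against 50.8% and 29% of all genes, and the median over all genes moved to -0.89. With DESeq2's size factors the counts were 27 lower and 23 higher, against 37.1% and 51.4% of all genes, and that median was 0.50.

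Of the 5 tested pausing factors, 4 were lower at 72 h, against 41.9% of all genes. NELFB, a subunit of the negative elongation factor, had 216, 199 and 160 CPM on DMSO and 36.2, 37.7 and 45.7 CPM on toyocamycin (log2 fold change -2.23, SE 0.158, adjusted p = 2.32e-09). NELFE (-1.94), SUPT5H, the large DSIF subunit (-1.39), and NELFA (-0.62) were also lower. NELFCD was higher by a small amount (0.41), a sign that turned when libraries were scaled by total counts (-0.19) or on mitochondrially encoded genes (-0.67). Of the 6298 exon bases of NELFCD, 6136 overlap CTSZ on the opposite strand, and whether counting used strand is not stated. With DESeq2's size factors NELFA was no longer called (-0.30, adjusted p = 0.224).

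Among the histone chaperones SSRP1 and SUPT16H, the subunits of FACT, were lower at 72 h (log2 fold changes -1.78 and -0.44), and the call of SUPT16H was lost with DESeq2's size factors (-0.12, adjusted p = 0.414). SSRP1 was at 331, 339 and 348 CPM on DMSO and at 93.5, 94.0 and 102 CPM on toyocamycin. SUPT6H, which rebuilds nucleosomes behind the polymerase, was called higher (0.27), and its sign turned under scaling by total counts (-0.33) or on mitochondrially encoded genes (-0.81). The call of SUPT6H was also lost without toyocamycin replicate 3 (0.23, adjusted p = 0.115).

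All 5 listed genes of the PAF1 complex, which couples the polymerase to histone modification, were lower at 72 h, as they had been at 10 and 24 h. Over all genes 41.9% were lower at 72 h. WDR61, a further subunit from the wider list, was not called at 10 h (-0.10) or at 72 h (-0.26, adjusted p = 0.166). Its effect at 24 h was -0.94. RTF1 had 147, 138 and 156 CPM on DMSO and 31.2, 28.5 and 28.9 CPM on toyocamycin (log2 fold change -2.28, SE 0.121, adjusted p = 8.9e-11). CDC73, the tumour suppressor parafibromin, had 52.0, 55.7 and 64.5 CPM against 14.2, 11 and 10.3 CPM (log2 fold change -2.25). PAF1 (-1.67), CTR9 (-1.60) and LEO1 (-0.77) followed. The order had changed since 10 h, when CTR9, PAF1 and LEO1 had the largest falls (-3.08, -2.48 and -2.46) and CDC73 and RTF1 the smallest (-1.43 and -1.40). None of the 5 was called at 2 h, and the effect at 72 h was lower than that at 2 h for all 5, a call that LEO1 lost with DESeq2's size factors (-0.32, adjusted p = 0.268).

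**Figure D4:**
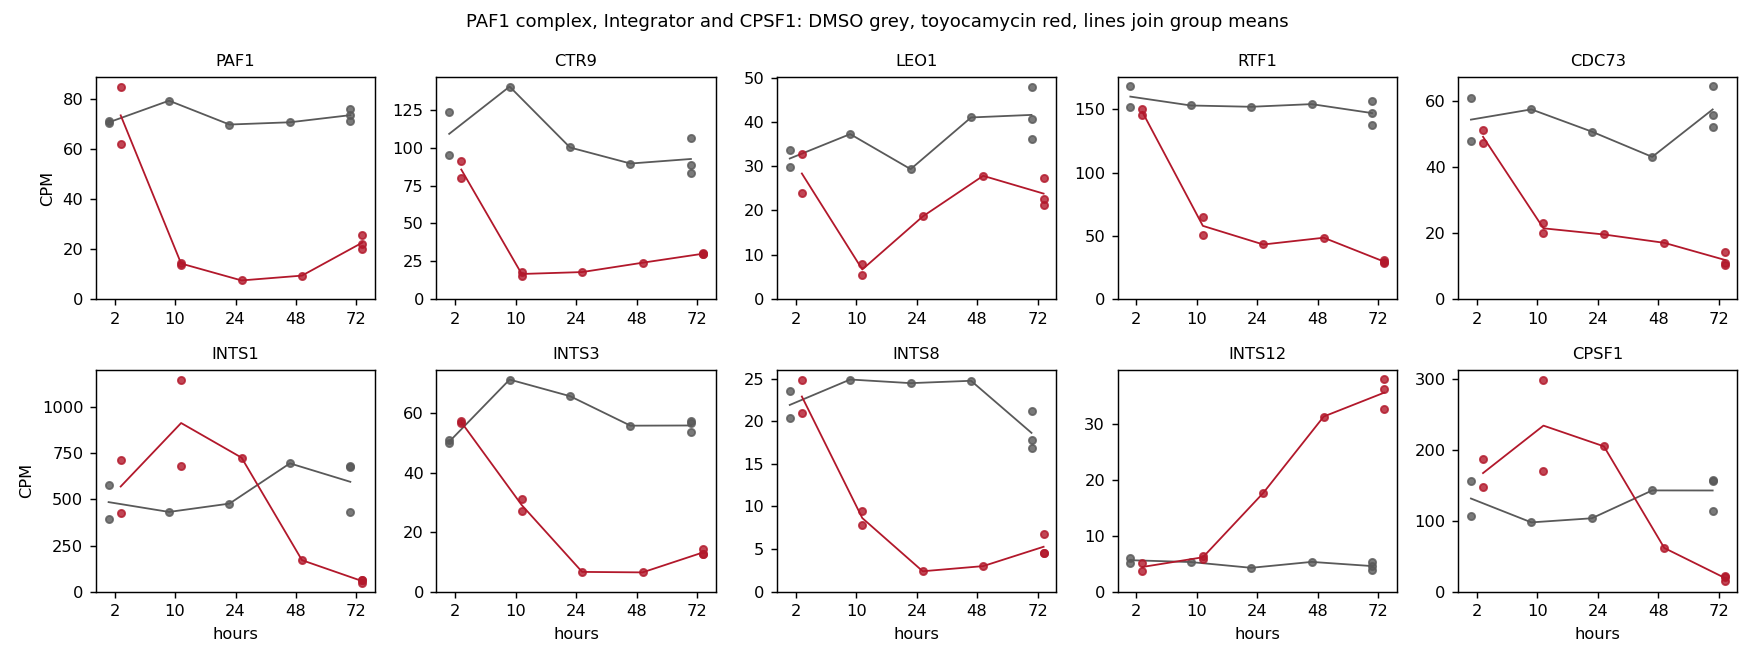
CPM against time in hours for the 5 listed genes of the PAF1 complex, for 4 Integrator genes and for CPSF1. Each library has a point (DMSO grey, toyocamycin red), lines run through the group means, and the time axis is not to scale. The PAF1 complex lies below DMSO from 10 h on, with LEO1 nearest to it at 24 and 48 h, INTS1 and CPSF1 lie above DMSO at 10 h and far below it at 72 h, and INTS12 climbs from 24 h on.

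Of the 11 listed Integrator genes, 8 were lower and 2 higher at 72 h, against 41.9% and 47% of all genes. Among the 11, INTS5 was not called. INTS1 (chr7:1470277-1504389, minus strand) fell most, from 674, 679 and 431 CPM on DMSO to 47.4, 61.3 and 63.6 CPM on toyocamycin (log2 fold change -3.34, SE 0.24, adjusted p = 2.9e-09). Its call as higher at 10 h had not held in every setting. INTS3, a subunit that also takes part in DNA repair, had 53.6, 56.5 and 57.3 CPM against 12.6, 12.8 and 14.3 CPM (log2 fold change -2.05), and shares exon bases with SLC27A3 on the same strand. INTS4 (-1.95) and INTS9 (-1.23), which form the cleavage module with the nuclease INTS11, were also lower, as were INTS8 (-1.78), INTS6 (-0.81), INTS7 (-0.67) and INTS10 (-0.61). INTS11 itself, from the wider list, was not called (-0.16, adjusted p = 0.397). Of the 6 tested genes that the wider list groups with Integrator, 1 was lower at 72 h, INTS13 (-0.89). A further 3 were higher: NABP1 (4.29), INTS14 (0.88) and INIP (0.55). Of these 3, only INTS14 bears the name of an Integrator subunit. INTS7 lost its call in DESeq2's Wald test (-0.35, adjusted p = 0.113).

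INTS12, a PHD-finger subunit, moved the other way. Its level was 3.91, 4.55 and 5.32 CPM on DMSO and 37.9, 36.2 and 32.6 CPM on toyocamycin, 7.74-fold higher (log2 fold change 2.98, SE 0.181, adjusted p = 4.11e-10). The groups were far apart at 72 h, and at 2 h the gene had 6.10 and 5.19 CPM on DMSO and 3.73 and 5.15 CPM on toyocamycin, which did not pass the threshold. INTS12 shares exon bases with genes on the opposite strand. INTS2, the second gene called higher (0.30), turned sign under scaling by total counts (-0.30).

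Of the 17 genes of cleavage and polyadenylation, 8 were lower and 9 higher at 72 h, against 41.9% and 47% of all genes. Lower were CPSF1 (-2.83), SYMPK, the scaffold symplekin (-1.91), CPSF2 (-1.56), CPSF3, the nuclease that cuts the transcript (-1.19), CSTF2 (-0.61), PABPN1 (-0.37), CPSF6 (-0.37) and NUDT21 (-0.25). CPSF1 had 156, 158 and 114 CPM on DMSO and 15.5, 20.6 and 22.5 CPM on toyocamycin (SE 0.198, adjusted p = 2.08e-09). Higher were PCF11, CSTF1, CSTF3 (2.19), CLP1, WDR33, CPSF4 (1.11), PAPOLA, the poly(A) polymerase (1.01), FIP1L1 (0.996) and CPSF7 (0.76). Within the CSTF complex CSTF1 and CSTF3 were thus higher and CSTF2 lower, and within cleavage factor II both PCF11 and CLP1 were higher. NUDT21 turned sign with DESeq2's size factors (0.071), with which CPSF6 (-0.043, adjusted p = 0.735) and PABPN1 (-0.051, adjusted p = 0.805) were no longer called, and CPSF7 (-0.31), FIP1L1 (-0.068) and PAPOLA (-0.036) on the mitochondrial scale. CPSF7 was not called when scaled by total counts (0.16, adjusted p = 0.222), nor CPSF4 on the mitochondrial scale (0.0057, adjusted p = 0.991).

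All 6 genes of termination and the CTD were called at 72 h, 2 lower and 4 higher, against 41.9% and 47% of all genes. XRN2 had 107, 104 and 128 CPM on DMSO and 24.9, 18.5 and 21.6 CPM on toyocamycin (log2 fold change -2.35, SE 0.16, adjusted p = 1.46e-09), and TTF2, an ATPase that releases transcripts, was lower by a like amount (-2.06). PPP1R10, RPRD1A, RPRD1B and SSU72 were higher. SSU72 had 146, 152 and 143 CPM on DMSO and 431, 426 and 456 CPM on toyocamycin (log2 fold change 1.61), and was not called on the mitochondrial scale (0.53, adjusted p = 0.274).

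The elongation factors held families whose members could be set side by side. RPRD1A and RPRD1B, of the termination group, were both higher at 72 h, and RPRD1A (28.6, 26.7 and 35.8 CPM on DMSO against 196, 159 and 176 CPM, log2 fold change 2.57) was not called at 2 h (0.20), where RPRD1B was lower. EAF1 was higher, and EAF2 had 4, 13 and 10 counts on DMSO against 1, 0 and 1 on toyocamycin, a ratio of 6.74 lower with a 95% exact counting interval of 1.69 to 58.5 (adjusted p = 0.013). TCEA1, the common TFIIS that restarts stalled polymerases, was lower (log2 fold change -1.47), with 85.9, 86.5 and 114 CPM against 35.3, 29.4 and 36.2 CPM. TCEA2 (chr20:64049836-64072347) had 0, 3 and 0 counts on DMSO and 206, 313 and 306 counts, or 20.2, 29.0 and 26.6 CPM, on toyocamycin, a ratio of 551 with a counting interval of 188 to 2675 (adjusted p = 2.07e-10).

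Among the ELL proteins, ELL was not called at 72 h, ELL2 was higher (0.61, with a sign that turned on the mitochondrial scale, -0.46), and ELL3 had 0, 0 and 4 counts against 7, 23 and 30, a ratio of 30.03 with a counting interval of 11.1 to 114. ELL3 shares exon bases with genes on the opposite strand. These intervals cover counting error only. MLLT1 and MLLT3, the YEATS readers of the super elongation complex, differed: MLLT1 was lower (-1.53), with 155, 150 and 111 CPM against 37.2, 47.1 and 56.5 CPM, and MLLT3 was not called (0.24, SE 0.233). CSTF2, lower at 72 h, was set beside its autosomal retrogene CSTF2T, which had 10.4, 11.5 and 11.9 CPM on DMSO and 128, 139 and 109 CPM on toyocamycin (log2 fold change 3.50). At 2 h CSTF2T had been lower (-1.08) and CSTF2 not called (-0.057). The counting mode takes uniquely mapped reads only, so reads that fit both genes equally well enter neither count.

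**Figure D5:**
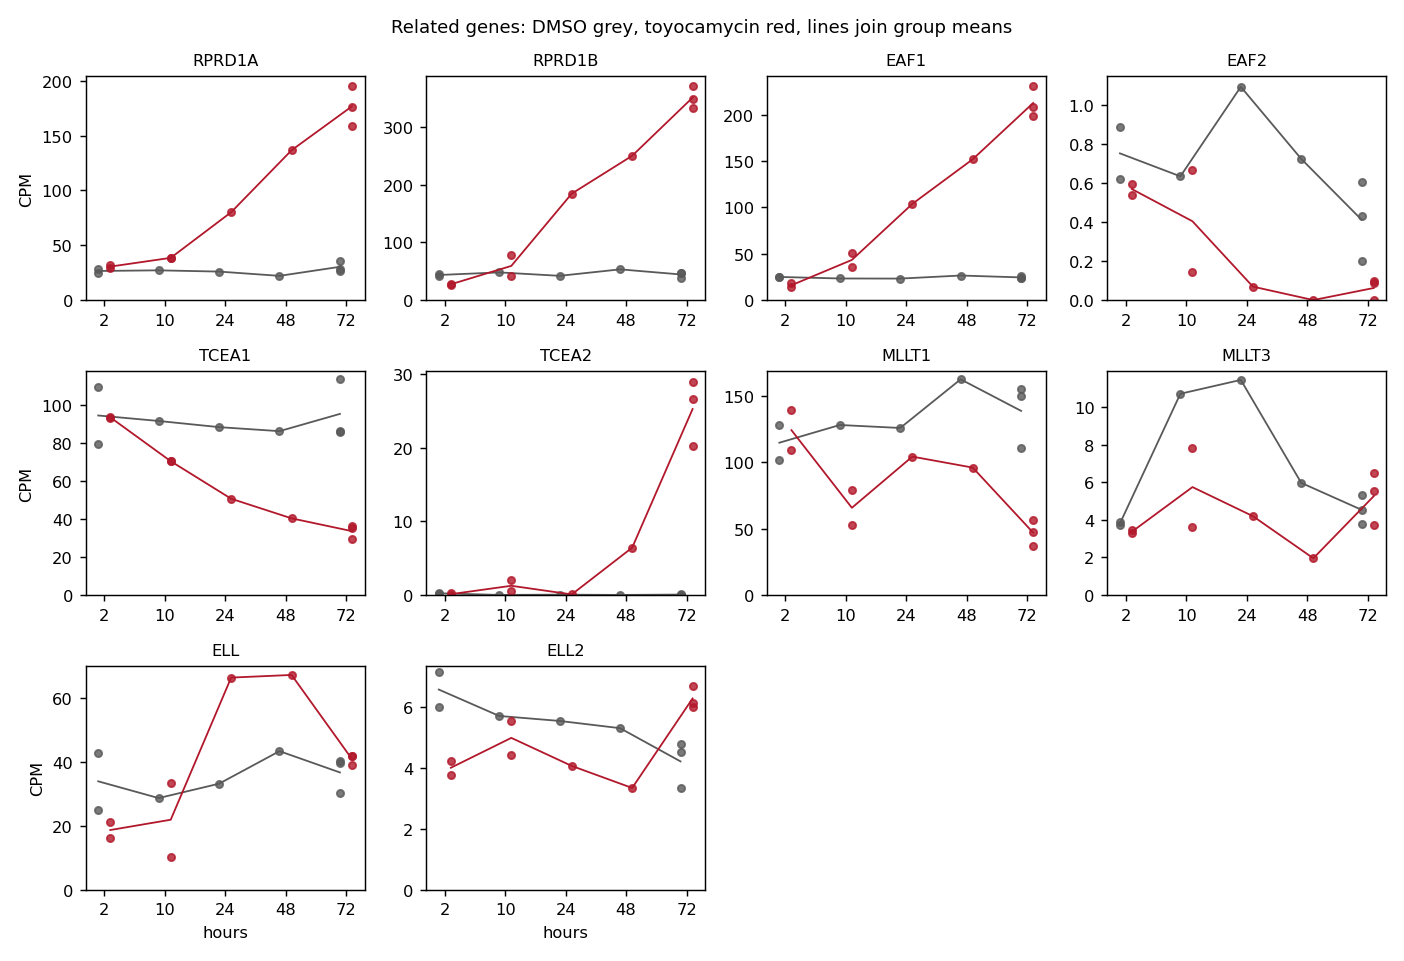
CPM against time in hours for related genes of the RPRD1, EAF, TCEA, MLLT and ELL families, with a point for each library (DMSO grey, toyocamycin red) and lines through the group means; the time axis is not to scale and each panel has its own vertical axis. At 72 h both RPRD1 genes, EAF1 and TCEA2 lie above DMSO and EAF2, TCEA1 and MLLT1 below it, while the libraries of MLLT3 and of ELL overlap.

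A wider list of 59 other genes of the same pathway, which the list above leaves out, was counted in the same tests. Both lists were chosen with earlier results of these data known. At 2 h 17 of the 57 tested were lower and none higher, against 8.42% and 0.518% of all genes. They were 5 of 12 in P-TEFb and its partners, 2 of 3 CTD kinase genes of elongation and 3 of 10 other elongation factors. The rest were 5 of 12 other termination and CTD genes and 2 of 14 other 3′ end genes, with 0 of 6 genes grouped with Integrator. MEPCE, the enzyme that caps 7SK RNA and so helps hold P-TEFb inactive, had the largest fall at 2 h, from 210 and 180 CPM to 56.9 and 41.9 CPM (log2 fold change -1.98). PAPOLG (-1.23), CSTF2T (-1.08), AFF4 (-1.04), SCAF8 (-1.02), PHRF1 (-1.02), CCNT1, the cyclin of P-TEFb (-0.94), CDK13 (-0.90), HEXIM1, an inhibitor of P-TEFb (-0.84), AFF1 (-0.82), SCAF4 (-0.77) and CDK12 (-0.72) followed. CDK9 itself had an effect of -0.41 and was not called at 2 h. At 72 h 13 of these 57 genes were lower and 34 higher, against 41.9% and 47% of all genes, with a median effect of 0.76, beside -0.52 for the 56 genes above and 0.18 for all genes.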

How the data were processed

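Poly(A) RNA of YB5 cells was sequenced as paired ends, and replicates are biological per the labels. The authors aligned reads to GRCh38 with STAR 2.7.5a, counted reads per gene in its GeneCounts mode, which takes uniquely mapped reads, and deposited whole-number counts of 19141 genes. Whether counting used strand is not given in the sources used here. A table of the authors' own comparisons (fold changes and adjusted p-values) was not used. Of the count columns, 1 matched no sample described and was not used. Symbols of 19080 genes and positions came from a later annotation (GENCODE v44) of the same build.

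Counts were analysed with R 4.3.3, edgeR 4.0.16 (quasi-likelihood test in its older form, TMM, filterByExpr) and limma 3.58.1, and with Python 3.11.15. A fit of 14 libraries, of 14491 genes, gave 2, 24, 48 and 72 h and the difference of 72 and 2 h. A fit of all 17, of 16521 genes, gave 10 h. Genes were called where the p adjusted by Benjamini-Hochberg was below 0.1, whatever the fold, after the study's methods. At 24 and 48 h the lone library of each arm is assumed to vary like the others. CPM used TMM over all 17 libraries. Depth was 8735465 to 22121364 counts per library, and floors of 3 counts and intervals cover counting error only. The members, their groups, the wider list and the marker lists were chosen with earlier results of these data known.

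Named with values were all genes called at 2 h; at 72 h the largest rise and fall in each role group and the 6 largest of each direction; at 10, 24 and 48 h the 4 largest of each direction; families side by side; and up to 12 of the wider list called at 2 h. Other genes of a role group were added after their values were seen. Same-numbered libraries of 2 h share a batch label, so numbers pair them (correlation of deviations 0.546). Replicate pairs differed by more than counting noise (mean chi-square per gene 6.10 to 75.6), so each counts once. On simulated counts for the 2 h design, 77% of genes changed 2-fold and 100% of those changed 4-fold were recovered among 14491 genes, for 72 h 88% and 99% of the same number, and for 10 h 38% and 85% among 16521. Each simulation changed 100 genes at each fold, in both directions, without a batch effect or a shift of most genes. The rates do not cover data with such shifts. Alternatives were other scalings, filters, tests (DESeq2 1.42.0 among them), a batch term, a replicate block, a minimum fold and leaving out each replicate.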

Additional observations from a re-analysis of the deposited data

Results flagged for a closer look

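The effect of toyocamycin differed between 2 and 72 h, by the test of the difference itself, for 51 of the 56 tested genes. It was lower at 72 h for 29 and higher for 22, against 38.1% and 38% of all genes. The 9 genes lower at 2 h were all among those with a higher effect at 72 h. They were picked by the 2 h fall that the difference subtracts, which favoured this beforehand. The log2 fold change at 72 h minus that at 2 h was 5.15 for PPP1R10, 4.93 for PCF11, 3.91 for CSTF1, 3.80 for EAF1, 3.68 for RPRD1B, 2.72 for CLP1, 2.00 for WDR33, 1.05 for ELL and 1.03 for INTS5. On the mitochondrial scale the difference was not called for ELL, INTS5 and WDR33, nor by total counts for ELL and INTS5. The DMSO level of PCF11 and of PPP1R10 was itself lower at 72 h than at 2 h, and its part in the difference was not tested. The libraries of 72 h are all of the first batch and those of 2 h are split between both. With a batch term over 17 libraries 30 genes had a lower and 22 a higher effect at 72 h, against 33.8% and 33% of all genes. The 9 genes then had differences of 0.97 (ELL) to 5.12 (PPP1R10), all past the threshold. No group held 4 or more libraries, so no library was tested for standing apart from its group.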

How the results depend on the processing

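Of 180 counts of called genes under other settings, 166 lay within 1.5 times the reported count. The others were these. On the mitochondrial scale 1 gene was lower at 2 h (PPP1R10), and the counts of higher genes at the 4 later times were 1, 0, 2 and 10 in order of time. On that scale 9 had a higher effect at 72 h than at 2 h, against 19.4% of all genes. Scaled by total counts, 2 were higher at 10 h and 7 at 24 h, against 11.3% and 15.1% of all genes. DESeq2's Wald test called 11 higher at 10 h, against 28.5% of all genes. With a minimum fold change of 1.5, 5 were lower at 2 h and 2 higher at 10 h, against 2.53% and 12.3% of all genes. In a fit of all 17 libraries 5 were lower at 2 h, against 4.91% of all genes (CLP1, CSTF1, INTS5, PCF11 and PPP1R10 in both settings). The replicate block, which pairs libraries of 1 batch at 2 h, added 1 higher gene there (PABPN1) and moved no other count by over 1.5 times; at 72 h numbers do not pair (correlations -0.216, 0.122 and -0.189), and at 10 h too few are shared for a block. Leaving out 1 library gave 7 to 9 lower and 0 to 1 higher at 2 h (1 without toyocamycin replicate 1), 28 to 30 lower and 6 to 9 higher at 10 h, 30 to 32 and 20 to 21 at 72 h, and 25 to 30 and 21 to 22 for the difference. Signs turned at 72 h for NUDT21 (DESeq2's size factors 0.071, Wald test 0.071, at least 10 counts in every library 0.030); by total counts for NELFCD (-0.19), SUPT6H (-0.33), ELL (-0.41) and INTS2 (-0.30); and on the mitochondrial scale for NELFCD (-0.67), SUPT6H (-0.81), ELL (-0.92), ELL2 (-0.46), INTS2 (-0.73), FIP1L1 (-0.068), CPSF7 (-0.31) and PAPOLA (-0.036), for EAF1 at 10 h (-0.19) and at 24 h for EAF1 (-0.10), INTS12 (-0.21) and RPRD1B (-0.12). That scale moved the median of all genes at 24 h from 0 to -2.16, and by total counts it was -0.91; the cause was not tested. A batch term at 10 h gave 27.2% of all genes lower and 37.8% higher. Depth limits TCEA2, ELL3 and EAF2, the only tested genes under 10 counts in some library.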
